A study of Mus musculus with 8 samples.

Results

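Neuropeptide receptors are the cell-surface proteins through which peptides released by neurons act on other cells. The 43 receptor genes described here were chosen by symbol as a list of receptors for 20 peptide families, without opioid receptors, and all 43 were found among the 24343 genes of the deposited table. Whole brains of 3 C57BL/6NCrl mice aged 56–62 days, all of a single condition with no treatment or transgene named in the labels, were profiled by bulk RNA-seq. Mice 1 and 2 gave 3 libraries each, and mouse 3 gave 2. Sex is not stated in the labels, nor do they say whether the libraries of a mouse came from separate pieces of tissue or from repeated preparations.

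All members are G-protein-coupled receptors, which span the membrane and pass a signal to G proteins inside the cell. Receptors that couple mainly to Gi/o lower cyclic AMP and tend to quiet neurons, those that couple to Gs raise cyclic AMP, and those that couple to Gq/11 release calcium from internal stores. Most are made by restricted sets of neurons, and some, such as the neurotensin receptor Ntsr2 and the PACAP receptor Adcyap1r1, are also known from glial cells. In a whole-brain extract, few cells with much RNA and many cells with little RNA give the same value, so that fewer cells of a type and less RNA per cell cannot be told apart.

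The values are FPKM, fragments scaled to transcript length and library size, summed over the transcripts of a gene, so that levels of different genes can be compared per length. They were averaged within each mouse and then over mice, and each SD is between mice with n = 3. Depth, taken as coverage multiplied by transcript length, was 1.31–2.02 gigabases per library, and the number of reads is unknown, so that no counting interval was computed. Brain markers were present in every library (Snap25 at 915–1119 FPKM), whereas 5 pituitary hormone genes summed to 0.443–1.99 FPKM. Both libraries of mouse 3 stood apart from the other 6, with total FPKM of 384885 and 409889 against 295541–345572. Their log2 deviations from the mean of all libraries ran against transcript length (Spearman's rho of -0.30 and -0.49 across genes), and in the other libraries with it (0.13–0.40).

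Among the families, the neurotensin receptors showed the widest gap between the highest and the second member. Ntsr2 was the highest member at 61.8 ± 20.5 FPKM, 39.2-fold above Ntsr1 at 1.58 ± 0.283 FPKM, and was the higher of this pair in 8 of 8 libraries. The 250 bases before the start of each gene are printed because they differ in the dinucleotide CG, which is shown in capitals. Ntsr1 (chr2:180499726-180499975, plus strand) and Ntsr2 (chr12:16653220-16653469, plus strand) are given from RefSeq on GRCm38.p6.
Ntsr1: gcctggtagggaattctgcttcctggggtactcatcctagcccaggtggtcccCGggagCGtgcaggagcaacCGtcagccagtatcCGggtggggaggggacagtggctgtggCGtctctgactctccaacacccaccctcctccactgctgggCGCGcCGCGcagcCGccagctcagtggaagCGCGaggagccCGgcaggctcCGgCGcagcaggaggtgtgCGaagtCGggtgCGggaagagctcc
Ntsr2: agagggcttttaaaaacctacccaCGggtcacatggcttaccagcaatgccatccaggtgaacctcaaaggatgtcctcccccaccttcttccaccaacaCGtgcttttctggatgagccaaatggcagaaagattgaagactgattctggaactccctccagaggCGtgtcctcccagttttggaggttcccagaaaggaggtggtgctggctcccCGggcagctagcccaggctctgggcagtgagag
The Ntsr1 window held 18 CG and the Ntsr2 window 4. Of all 32851 windows of this length, 21.7% held as many as Ntsr1 and 62.2% as many as Ntsr2. Windows were matched for 34 of the 43 members (38 windows), with a median of 10.5 CG against 6 over all windows. These counts describe the sequence and carry no test.

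As a group, the members were near all genes of the table in median level and in the share at 1 FPKM, but few lay at either extreme. Their median level was 1.22 FPKM, against 1.54 over all genes of the table. At least 1 FPKM was reached by 23 members (53.5%, against 53.4% of all genes), and at least 10 FPKM by 2 (5949 of all 24343 genes). Between 0.1 and 1 FPKM lay 18 members (3391 of all genes). Below 0.1 FPKM lay 2, Galr3 and Avpr1b (7951 of all genes). All members together summed to 161 ± 18.1 FPKM, and Ntsr2 and Adcyap1r1 made up 56.3% of that sum. The other 41 summed to 70.4 ± 5.76 FPKM.

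**Figure D1:**
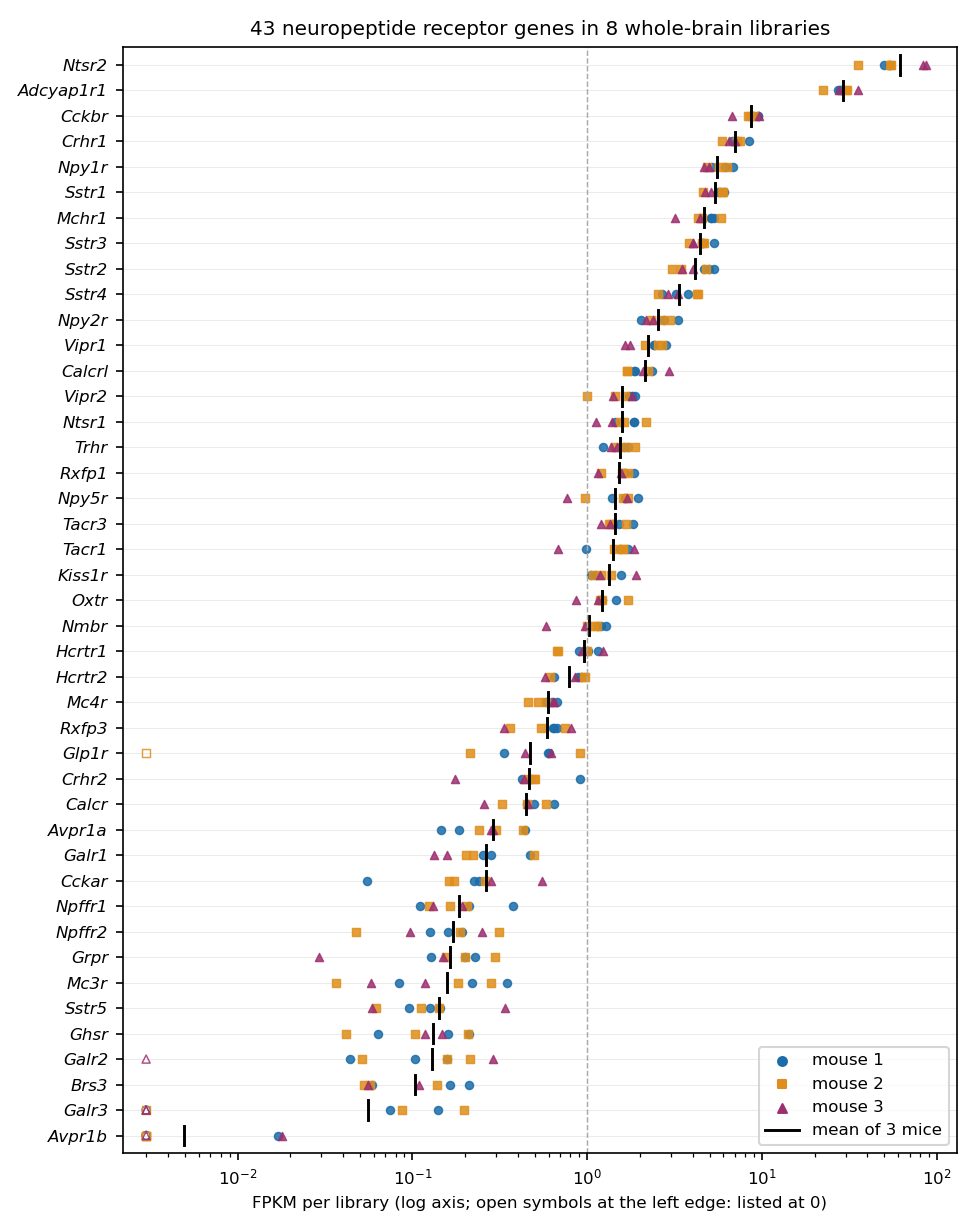
FPKM of the 43 receptor genes in each of 8 libraries on a log axis, ordered by the mean of 3 mice (black lines); symbols mark the mouse, open symbols at the left edge are listed at 0 and the dashed line is 1 FPKM. Ntsr2 and Adcyap1r1 lie to the right of all others, and the libraries of neighbouring genes overlap below them.

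In the plot of all members, the order of neighbours was firm at the top only. Of 42 neighbouring pairs, 2 had libraries that did not overlap. These were Ntsr2 above Adcyap1r1, where the lowest Ntsr2 library (35.4 FPKM) only just exceeded the highest Adcyap1r1 library (35.3 FPKM), and Adcyap1r1 above Cckbr. One further pair, Sstr1 above Mchr1, kept its order within each of the 8 libraries although the ranges overlapped. For the other 39 pairs the order of the means lay within the spread of the libraries.

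Precision fell with level. The deposited confidence bounds, whose level the sources used here do not state, spanned 6.16% of the value to either side for Ntsr2 (median over libraries), 11.6% for Cckbr and 64.6% for Glp1r. Among the 36 members with a single annotated transcript, 25 had a lower bound above 0 in all 8 libraries. Of all members, 39 were above 0 in every library.

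Ntsr2, the neurotensin receptor of lower affinity, lies on chromosome 12 from 16653470 to 16660236 (mm10). It stood at 49.4, 53.9 and 53.0 FPKM in mouse 1, at 35.4, 53.5 and 54.7 FPKM in mouse 2, and at 86.9 and 83.6 FPKM in mouse 3. Both libraries of mouse 3 exceeded the other 6, and the lowest value came from library 1 of mouse 2. Ntsr1, the receptor of higher affinity, ranged from 1.12 to 2.15 FPKM, with the 2 libraries of mouse 3 the lowest of the 8.

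The receptors for VIP and PACAP, peptides that raise cyclic AMP in neurons and glia, were dominated by the PACAP-preferring Adcyap1r1 (29.0 ± 2.17 FPKM), which held 88.4% of the family sum. It lies on chromosome 6 from 55451978 to 55501455. Libraries of mouse 1 had 27.0, 27.9 and 28.3 FPKM of Adcyap1r1, those of mouse 2 had 22.4, 30.7 and 30.0 FPKM, and those of mouse 3 had 35.3 and 27.6 FPKM. The mice overlapped, and library 1 of mouse 2 was again the lowest. Of its 2 annotated transcripts, NM_001025372 took a median of 63.2% of the estimate and NM_007407 took 36.8%, and such shares rest on an estimated split of shared reads. Vipr1 and Vipr2, which bind both peptides, had 2.23 ± 0.464 and 1.59 ± 0.222 FPKM.

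The gap between the CCK receptors was 33.0-fold. Cckbr, the main receptor for cholecystokinin in the brain, had 8.66 ± 0.581 FPKM and 97.1% of the family sum, whereas Cckar, best known from the gut, had 0.262 ± 0.133 FPKM (0.0553–0.549 over libraries). Cckbr measured 9.46, 8.89 and 9.46 FPKM in mouse 1, 8.53, 8.25 and 9.06 FPKM in mouse 2, and 9.54 and 6.68 FPKM in mouse 3. The highest and the lowest library both came from mouse 3.

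Crhr1, the receptor for corticotropin-releasing hormone that starts the pituitary stress response, had 6.998 ± 0.389 FPKM, and 93.8% of its family sum. Its libraries showed 6.73, 7.22 and 8.38 FPKM for mouse 1, 5.87, 7.46 and 7.16 FPKM for mouse 2, and 6.42 and 7.02 FPKM for mouse 3, so that the mice overlapped. Crhr2, which prefers urocortins, had 0.463 ± 0.149 FPKM and a range of 0.175–0.905. Crhr2 and Adcyap1r1 lie 319 kb apart on chromosome 6, with levels that differ widely.

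Somatostatin receptors, which couple to Gi/o and inhibit neurons and hormone release, included 4 members of similar level. Sstr1 (5.41 ± 0.457 FPKM), Sstr3 (4.38 ± 0.400), Sstr2 (4.15 ± 0.705) and Sstr4 (3.33 ± 0.309) lay close together, and Sstr5 was far below at 0.142 ± 0.0497 FPKM. Sstr1 held 31.0% of the family sum and exceeded Sstr3, the next, in 7 of 8 libraries. Mouse 1 had 6.06, 5.77 and 5.62 FPKM of Sstr1, mouse 2 had 4.56, 5.98 and 5.92 FPKM, and mouse 3 had 5.10 and 4.72 FPKM. The lowest library belonged to mouse 2, and the mice overlapped. Sstr2 has 2 annotated transcripts, and the higher alone had 2.55 FPKM.

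The NPY receptors also couple to Gi/o, and act in feeding and anxiety. Npy1r had 5.49 ± 0.616 FPKM, Npy2r, often found on axon terminals, had 2.54 ± 0.230, and Npy5r had 1.44 ± 0.220. Values of Npy1r were 6.79, 5.17 and 6.16 FPKM in mouse 1, 4.86, 5.68 and 6.25 FPKM in mouse 2, and 4.65 and 4.995 FPKM in mouse 3. Npy1r exceeded Npy2r in 8 of 8 libraries. Npy1r and Npy5r are neighbours 9.33 kb apart on chromosome 8, and Npy5r ranged from 0.760 to 1.96 FPKM, lowest in library 2 of mouse 3.

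Oxtr, the oxytocin receptor, led the receptors for oxytocin and vasopressin with 1.22 ± 0.191 FPKM, 4.22-fold above the vasopressin receptor Avpr1a (0.289 ± 0.0338 FPKM). Oxtr gave 1.18, 1.21 and 1.46 FPKM in mouse 1, 1.19, 1.21 and 1.71 FPKM in mouse 2, and 0.863 and 1.15 FPKM in mouse 3. Both libraries of mouse 3 were the lowest. Avpr1b, a vasopressin receptor best known from the pituitary, was the lowest member, with 0, 0.0171 and 0 FPKM in mouse 1, 0.0180 and 0 FPKM in mouse 3, and 0 in all 3 libraries of mouse 2.

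The bombesin receptors were led by Nmbr, the neuromedin B receptor, at 1.02 ± 0.221 FPKM. Nmbr had 1.28, 1.15 and 1.19 FPKM in mouse 1, 1.13, 1.09 and 0.995 FPKM in mouse 2, and 0.968 and 0.582 FPKM in mouse 3, where both libraries were below the other 6. Grpr (0.164 ± 0.0664 FPKM), the receptor for gastrin-releasing peptide, and Brs3 (0.103 ± 0.0359 FPKM), an orphan receptor, were lower. An antisense gene overlaps exons of Nmbr. Since the strand setting is not given in the sources used here, reads from the overlap may not have been told apart.

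Galanin receptors were all low. Galr1 measured 0.282, 0.254 and 0.471 FPKM in mouse 1, 0.498, 0.221 and 0.203 FPKM in mouse 2, and 0.134 and 0.157 FPKM in mouse 3, for a mean of 0.263 ± 0.103 FPKM. Galr2 had 0.0437, 0.157 and 0.104 FPKM in mouse 1, 0.0514, 0.214 and 0.157 FPKM in mouse 2, and 0.288 and 0 FPKM in mouse 3, whose libraries were the highest and the lowest of all. Without library 1 of mouse 3, the mean of Galr2 went from 0.129 to 0.0808 FPKM. Galr3 had 0.0741 and 0.139 FPKM in libraries 1 and 2 of mouse 1, and 0.0874 and 0.198 FPKM in libraries 1 and 3 of mouse 2. It was listed at 0, or below 1e-06 FPKM, in the other 4, including both libraries of mouse 3. Galr3 shares exon sequence with Gcat on the same strand (2.77 FPKM), so that its reads are uncertain.

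The other receptors of peptides from the hypothalamus, and the ghrelin receptor, lay across the range. Mchr1, the Gi/o-coupled receptor for melanin-concentrating hormone, had 4.62 ± 0.732 FPKM, and Trhr, the receptor for thyrotropin-releasing hormone, had 1.53 ± 0.120 FPKM. The orexin receptors Hcrtr1 (0.962 ± 0.157 FPKM) and Hcrtr2 (0.791 ± 0.0720 FPKM), which act in wakefulness, were not separated, with Hcrtr1 higher in 6 of 8 libraries. Mc4r (0.596 ± 0.0653 FPKM), a receptor that restrains feeding, exceeded Mc3r (0.157 ± 0.0648 FPKM) in 8 of 8 libraries. Kiss1r, the kisspeptin receptor that controls reproductive hormones, had 1.33 ± 0.183 FPKM. Its exons overlap those of R3hdm4 on the opposite strand, which stood at 90.3 FPKM. Without the strand setting, it is unknown whether reads from the overlap of this pair were told apart. Ghsr, the ghrelin receptor, had 0.132 ± 0.0137 FPKM.

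Tacr3, which prefers neurokinin B, and Tacr1, the substance P receptor, were alike in level (1.44 ± 0.158 and 1.41 ± 0.138 FPKM), with Tacr3 higher in 3 of 8 libraries. Calcrl, which forms receptors for CGRP and adrenomedullin together with RAMP proteins, had 2.14 ± 0.336 FPKM and exceeded Calcr, the calcitonin receptor (0.446 ± 0.0872 FPKM), in 8 of 8 libraries. The relaxin-family receptors Rxfp1 and Rxfp3 had 1.51 ± 0.178 and 0.590 ± 0.0521 FPKM. Npffr1 and Npffr2, receptors for RFamide peptides, had 0.186 ± 0.0400 and 0.171 ± 0.0117 FPKM, and each was the higher in 4 of 8 libraries. Glp1r, the receptor for glucagon-like peptide 1, showed 0.600, 0.594 and 0.332 FPKM in mouse 1, 0.212, 0 and 0.911 FPKM in mouse 2, and 0.619 and 0.440 FPKM in mouse 3. The lowest and the highest Glp1r libraries both came from mouse 2.

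Grouped by main G protein, the 14 Gi/o receptors had the highest median level (1.99 FPKM, 8 of them at 1 FPKM or more), ahead of 11 Gs receptors (1.51 FPKM, 6 of them) and 18 Gq/11 receptors (0.990 FPKM, 9 of them). The sums had the reverse order, with 32.8 ± 3.44, 45.6 ± 1.78 and 82.8 ± 19.3 FPKM, where Adcyap1r1 is counted in Gs and Ntsr2 in Gq/11. The 8 class B receptors, which bind larger peptides through a long outer domain, had a median of 1.86 FPKM against 1.02 over the 35 class A receptors. These groups are described without a test.

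The peptide genes of the same families spanned a wider range than their receptors. All 38 listed peptide genes were in the table, 22 of them at 1 FPKM or more and 4 listed at 0 in every library. The 5 highest were Cck (198 ± 33.8 FPKM), Sst (162 ± 22.0), Npy (78.1 ± 7.35), Tac1, the precursor of substance P (31.2 ± 7.23), and Pmch, the precursor of melanin-concentrating hormone (14.9 ± 4.33). In 14 of 20 families the peptide sum exceeded the receptor sum, by 22.3-fold for CCK, 13.9-fold for tachykinins, 12.4-fold for oxytocin and vasopressin, 9.53-fold for somatostatin and 8.29-fold for NPY (means of the ratios of 3 mice). It did so in each of the 3 mice except for ghrelin, where 2 of 3 mice had more peptide (ratio 1.62 ± 1.51). The receptor sum was the larger in 6 families. There the ratio of peptide to receptor was 0.0972 ± 0.00798 for neurotensin, 0.595 ± 0.0425 for VIP and PACAP, 0.313 ± 0.0739 for CRH, 0.556 ± 0.542 for relaxin, 0.452 ± 0.399 for kisspeptin and 0.177 ± 0.190 for GLP-1. It was below 1 in each of the 3 mice for all of these but relaxin, where 1 mouse had more peptide. The listed peptide genes of kisspeptin and GLP-1 were each at 0 in 5 of 8 libraries. In library 2 of mouse 3 the kisspeptin gene (2.78 FPKM) exceeded Kiss1r (1.90 FPKM), part of whose reads may come from R3hdm4. With 3 mice the smallest p that a two-sided exact test allows is 0.25, so that no test was run. Over the genes that averaged at least 0.1 FPKM, peptide transcripts had a median of 699 nt and receptor transcripts 2783 nt. The part of length in these ratios was not tested.

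**Figure D2:**
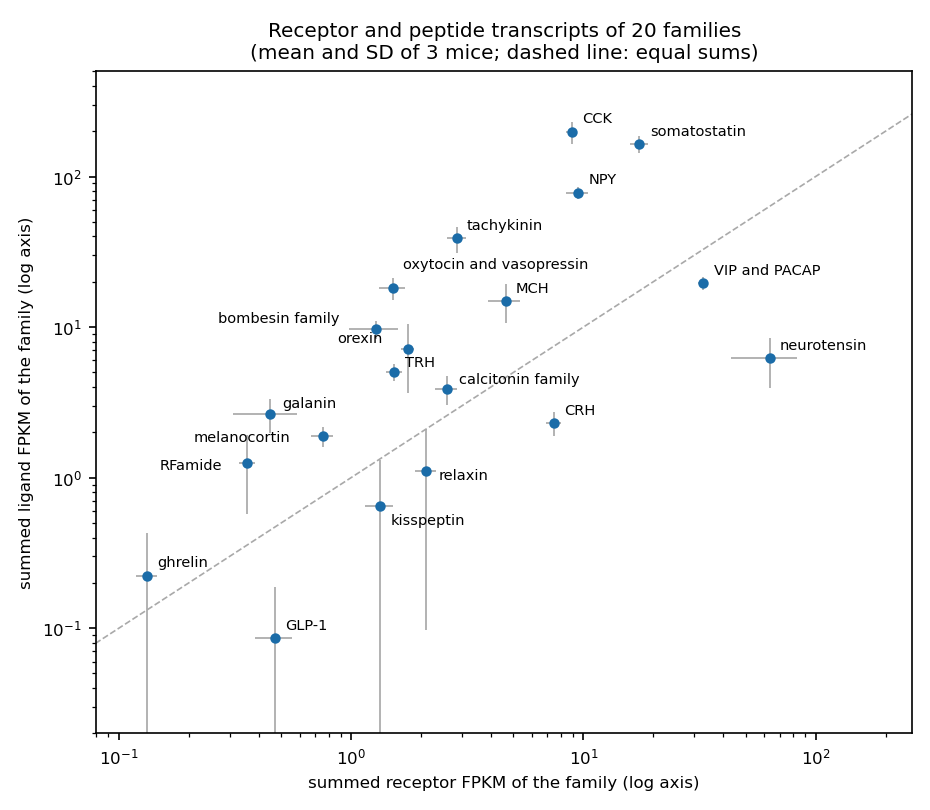
Summed FPKM of peptide genes against summed FPKM of receptor genes in 20 families, both on log axes, as means with SD bars of 3 mice (bars that reach 0 run to the axis); the dashed line marks equal sums. Neurotensin, GLP-1 and CRH lie farthest below the line, and CCK, tachykinins, and oxytocin and vasopressin lie farthest above it.

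Of the partner proteins, Ramp1, Ramp2 and Ramp3, which set the peptide that Calcrl and Calcr bind, had 18.3 ± 9.17, 14.2 ± 3.34 and 10.4 ± 1.82 FPKM, each above the 2.14 FPKM of Calcrl. The melanocortin receptor partner Mrap2 had 4.70 ± 0.478 FPKM and Mrap 0.120 ± 0.140 FPKM. Among 20 related receptors that are no members, 1 reached 1 FPKM, namely Qrfpr at 1.12 ± 0.354 FPKM, which was named after its value was seen.

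The only grouping in the labels is the mouse, so the comparison asks whether the 3 brains differed in receptor transcripts. The moderated F-test of limma was run on log2(FPKM + 0.1) over the 16390 genes that averaged at least 0.1 FPKM, with Benjamini-Hochberg adjustment over all of them. Libraries of a mouse are its replicates here, so p-values describe these 3 mice and the spread may be technical. Of 41 members tested, 1 passed an adjusted p of 0.05, against 19.1% of all genes tested (3131 genes). At an unadjusted p under 0.05 the numbers were 2 of 41 members and 34.4% of all genes. Between mice, the coefficient of variation had a median of 15.3% over these members and 14.0% over all genes tested. Between libraries of a mouse, the medians were 18.9% and 11.9%.

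Set beside genes of like level, the members were not unusually variable. Of 42 members compared with all genes in the same of 15 bins of level, 27 had a coefficient of variation between mice below the median of the bin and 31 lay within its middle 50%. Ntsr2 lay far above its bin, at 33.1% against a median of 14.0%. Cckbr, at 6.71%, and Adcyap1r1, at 7.48%, were in the lower part of theirs.

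**Figure D3:**
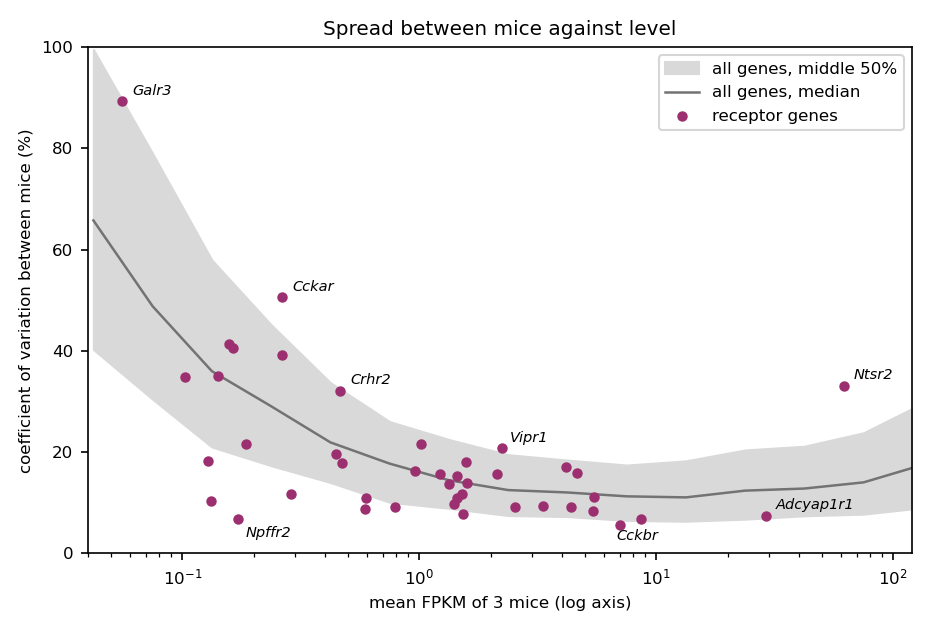
Coefficient of variation between the 3 mice (%) against mean FPKM (log axis) for the receptor genes (points; Avpr1b, below the axis, is left out), with the median and the middle 50% of all genes of like level. Ntsr2, at 33.1%, is the point farthest above the band at high level, whereas most other receptors lie on or near the band.

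Ntsr2 was the member that passed. It was higher in mouse 3 by 0.78 on the log2 scale than the mean of mice 1 and 2 (SE 0.15, 95% interval 0.44–1.13, limma adjusted p = 0.0197), and higher in 2 of 2 libraries than in all other 6. The call was lost without library 1 of mouse 3 (difference 0.76, adjusted p = 0.0875), without library 2 of mouse 3 (0.81, adjusted p = 0.151) and with a variance prior without a trend (0.0593), over a range of 0.00213–0.151 in all alternatives. In the fits without a library of mouse 3, the one left is assumed to vary like those of mice 1 and 2. The call held with the trend on transcript length removed (0.54, adjusted p = 0.0205). The 3 astrocyte markers Aqp4, Slc1a3 and Gja1 moved with it. All of them passed the test (adjusted p = 0.0122, 0.00815 and 0.00830), and their sums were 276–291 FPKM in mice 1 and 2 against 397 and 415 FPKM in mouse 3. As a ratio to that sum, Ntsr2 stood at 0.179–0.188 in mouse 1, 0.126–0.190 in mouse 2 and 0.202–0.219 in mouse 3. Sums of oligodendrocyte markers were also higher in mouse 3 (3598 and 4485 against 1848–2033 FPKM), and those of neuronal markers lower (1152 and 1281 against 1352–1466 FPKM). The part of cell makeup and of the length trend in the difference of Ntsr2 was not tested.

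**Figure D4:**
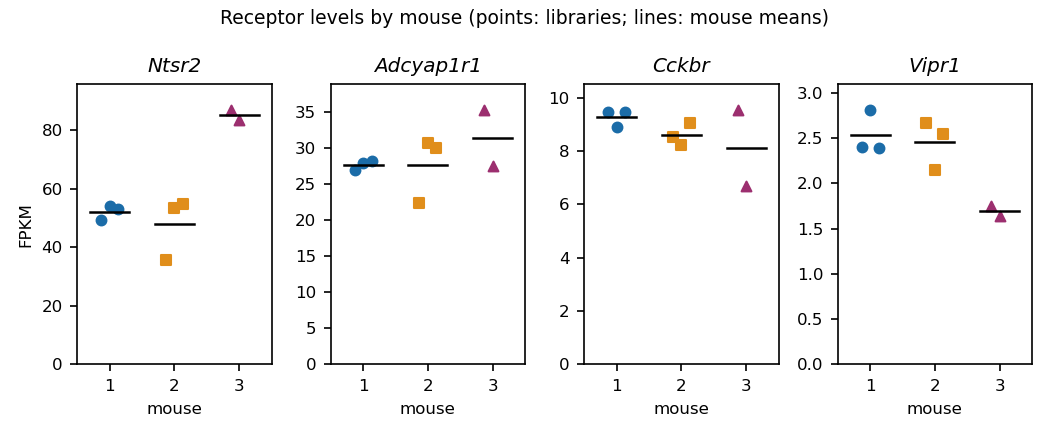
FPKM of 4 receptor genes by mouse, each panel on its own linear axis from 0, with a point for each library and a line for each mouse mean. Ntsr2 is higher in both libraries of mouse 3 (86.9 and 83.6 FPKM) than elsewhere, Vipr1 is lower in both (1.75 and 1.64 FPKM), and Adcyap1r1 and Cckbr overlap between mice.

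Vipr1, named after its values were seen, came next. Its libraries had 2.41, 2.81 and 2.40 FPKM in mouse 1, 2.67, 2.15 and 2.55 FPKM in mouse 2, and 1.75 and 1.64 FPKM in mouse 3, without overlap of mouse 3 with the others. The difference of -0.53 on the log2 scale (SE 0.13, limma adjusted p = 0.0545) missed the threshold. In the test of the 12990 genes that averaged 1 FPKM or more it passed (adjusted p = 0.0477), so that 2 of 23 members did, against 27.1% of all genes in that test. Of the 41 members, 13 were higher in mouse 3 than the mean of mice 1 and 2 (8577 of all 16390 genes), with a median difference of -0.18 against 0.03 over all genes tested.

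Rescaling each library to the same total (TPM) changed this picture, since total FPKM was higher in mouse 3. The median difference of all genes then moved from 0.03 to -0.26 on the log2 scale, and 9 of 41 members passed, against 33.8% of all genes. Ntsr2 was higher in mouse 3 (by 0.48, which is 0.75 above the median of all genes), and Crhr1, Mchr1, Nmbr, Npy1r, Ntsr1, Sstr1, Sstr2 and Vipr1 were lower. The share of called genes that were higher in mouse 3 was 55.7% with FPKM and 14.3% with TPM. With FPKM as deposited and all 8 libraries, Vipr1 was called at the minimum of 1 FPKM. In the same values with the length trend removed, Sstr2 was called. Before that removal, Sstr2 averaged 4.97 FPKM in mouse 1, 3.75 in mouse 2 and 3.74 in mouse 3, so that mouse 1 was the highest.

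Of the 46 peptide, partner and related receptor genes tested, 4 passed, namely Pmch, Nts, Calca and Ramp1, and all were higher in mouse 3. That is 8.70% of these genes, against 19.1% of all genes in the same fit. Pmch had 11.3, 13.3 and 11.5 FPKM in mouse 1, 12.1, 14.0 and 12.2 FPKM in mouse 2, and 18.2 and 21.6 FPKM in mouse 3 (log2 difference 0.67, limma adjusted p = 0.0100). Nts, the neurotensin precursor, differed by 0.84 (adjusted p = 0.0350), and Calca, the precursor of calcitonin and CGRP, by 0.68 (adjusted p = 0.0289, and 0.0608 with the library number as a replicate block). Of 31 peptide genes tested, 28 were higher in mouse 3, against 8577 of all 16390 genes. Peptide transcripts had a median of 699 nt, against 2718 nt over all genes tested. With the trend on transcript length removed, the differences were 0.04 for Pmch, 0.46 for Nts and 0.20 for Calca. None of the 3 passed then (limma adjusted p = 0.360, 0.148 and 0.459). The part of length in these differences was not tested. Over 18 alternatives the call of Nts was lost in 9 (adjusted p up to 0.293) and that of Calca in 7, including TPM for both (0.0687 and 0.0702). Ramp1 differed by 1.14 (SE 0.15, adjusted p = 0.00732) and passed with the trend removed too (1.09, adjusted p = 0.00261). It had 9.71–14.5 FPKM in the libraries of mice 1 and 2 and 24.8 and 32.9 FPKM in mouse 3. Over the 18 alternatives the call of Ramp1 was lost in 1, the fit without library 2 of mouse 3. There Ramp1 differed by 0.94, with 1 library left in that mouse. None of the 10 related receptors tested passed, with 1 at an unadjusted p under 0.05.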

How the data were processed

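Whole-brain RNA from 3 mice was profiled by bulk RNA-seq in 8 libraries. The authors deposited FPKM per RefSeq transcript (34535 transcripts), with confidence bounds, transcript length and coverage, a signal of read depth per base that is not scaled to library size. The submitters' processing notes name TopHat, Cufflinks and mm10, without versions. The strand setting and read length are not given in the sources used here. Estimates divide reads among the transcripts of a gene, so the transcripts were summed.

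Means were taken per mouse, then over mice. Mice were compared with limma 3.58.1 in R 4.3.3 (moderated F-test with a variance trend, all 8 libraries) on log2(FPKM + 0.1), for genes averaging at least 0.1 FPKM. The pseudocount understates the change of low genes. The script was tested on simulated data. Library numbers recur across mice, but same-numbered libraries did not deviate together (r from -0.02 to 0.08 over 7 pairs).

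The members and lists were chosen with earlier results of these data known. Values in every library are given for the 5 highest members and the lowest, for the highest in each family of at least 3, for members called or with a library at 0, and otherwise mean and SD. Of peptide and partner genes, the 5 highest and those called were to be named. The other partners and the peptide genes of kisspeptin and GLP-1 are given outside this rule. Promoter sequences are from RefSeq (GRCm38.p6).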

Additional observations from a re-analysis of the deposited data

How the results depend on the processing

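Against 3131 genes and 1 member that differed between the mice, TPM gave 5537 genes and 9 members, and the highest transcript alone gave 2040 genes. A variance prior without a trend gave 1526 genes (9.31% of those tested) and 0 of 41 members. At an unadjusted limma p under 0.05 were 3 members, against 32.2% of all genes tested. Removing the length trend gave 2 members, Ntsr2 and Sstr2, against 15.9% of all genes tested. A minimum mean of 1 FPKM gave 2, Ntsr2 and Vipr1, against 27.1%. Raising the pseudocount and the minimum together to 1 FPKM, an alternative added after the data were seen, gave 1 member, against 26.9%. Leaving out each library in turn gave 255 to 3854 genes, 0 to 2 members and 0 to 6 of the peptide, partner and related genes (4 with all libraries). The lowest counts of each came without library 2 of mouse 3, which leaves 1 library of that mouse. Without library 1 of mouse 3, Ntsr2 was higher in mouse 3 by 0.76 on the log2 scale, and its call was lost. The library left there is then assumed to vary like those of the other mice. Calls of other members in that fit are therefore not listed. Without library 3 of mouse 2 the 2 members were Ntsr2 and Sstr2, against 16.3% of all genes tested. Without libraries 1, 2 and 3 of mouse 1, 1749, 1641 and 1561 genes passed. With the library number as a replicate block, 3061 genes and 1 member passed, and 67.8% of the called genes were higher in mouse 3 against 55.7%. Of Ntsr2, Pmch, Nts, Calca and Ramp1, the block ended the call of Calca only, and the astrocyte markers were not examined with it. The median member level was 3.58 TPM against 1.22 FPKM, a change of scale, and 30 members were at 1 TPM or more. At least 1 FPKM was reached by 23 members under every other setting tried. Ntsr2, Adcyap1r1 and Cckbr were the highest 3 members under each setting for levels. With the highest transcript alone, levels were 19.1 FPKM for Adcyap1r1, 2.55 for Sstr2, 0.632 for Hcrtr1, 0.2835 for Calcr, 0.177 for Crhr2 and 0.0853 for Sstr5, each lower than the sum by over 1 SD. The 18 members between 0.1 and 1 FPKM and the 2 below rest on low values, with the number of reads unknown.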
